A study of Homo sapiens with 12 samples.

Results

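The AP-1 genes described here are FOS, FOSB, FOSL1, FOSL2, JUN, JUNB, JUND and ATF3, 8 of the 20046 genes with a symbol on the array. They were taken by symbol from the array annotation, which gave them 10 of the 47323 probes: 1 probe each and 3 for ATF3. Transcripts were measured in MCF10A, an untransformed human cell line of mammary epithelium, grown in medium with 10% serum. The VEC group carried a control vector, and the other groups stably expressed an ICD (intracellular domain) of ERBB4, a receptor tyrosine kinase of the EGFR family, from its JM-a form and as isoform CYT1 or CYT2. CYT1 contains a docking site for phosphoinositide 3-kinase that CYT2 lacks. Whether each line is 1 clone or a pool is not given in the sources used here. Each group had 4 arrays, by title 2 biological replicates of 2 technical arrays, and nothing in the labels says that the biological replicates came from separate cultures, so the p-values measure only the spread between these samples.

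AP-1 is a dimer of basic leucine zipper (bZIP) proteins. JUN proteins pair with one another or with FOS proteins, whereas FOS proteins mostly take a JUN partner, and ATF3 pairs with JUN proteins or with itself. The dimers bind the TPA response element, which lies within the broader pattern TGANTCA (N, any base). Mostly those with ATF members also bind the longer cyclic AMP response element (TGACGTCA). FOS, FOSB, JUN, JUNB and ATF3 are immediate early or stress genes whose transcripts are short-lived, while FOSL1 is a later and longer-lasting target of ERK signalling in epithelial cells.

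Levels below are normalised log2 intensities, which compare groups within a probe and not one gene with another. Differences are log2 fold changes with the standard error (SE) of a limma model of 2 biological replicates per group, and a gene is said to rise or fall where the adjusted p, taken over all 17356 probes tested, was under 0.05. On an array 37.0% to 39.6% of probes were above background. The ERBB4 probe was above background on 0 of 12 arrays, so it does not check the group labels. Of 10 basal epithelial markers 6 had a named probe, and all 6 were detected on all 4 arrays of every group. Their summed signal ran from 11950 to 14580 in VEC, from 10290 to 12210 in CYT1 and from 10440 to 12080 in CYT2. KRT5 rose by 1.08 in CYT1 and 0.95 in CYT2 and KRT14 by 1.60 and 0.51, whereas ITGA6 fell by 1.84 and 1.70 and CDH1 by 0.63 and 0.42 (log2). CDH3 fell by 0.43 in CYT1 and stood at -0.29 in CYT2, and ITGB4 was not called, at -0.20 and -0.21. Of 9 fibroblast markers COL3A1, PDGFRB, LUM and THY1 were undetected on every array, yet the summed signal of the list ran from 1275 to 1409 in VEC, from 5202 to 5904 in CYT1 and from 3223 to 3798 in CYT2, and in it DCN rose by 5.07 in CYT1 and 4.05 in CYT2 and FAP by 3.15 and 2.59 (log2, adjusted p from 4.7e-06 to 6.2e-05). COL1A1 was detected on 1 of 4 VEC arrays and all ICD arrays, so it passed the filter only through the ICD groups. COL1A2 was not called, at -0.24 and -0.20. Among leukocyte markers PTPRC, CD3E and LYZ, and among endothelial markers VWF, CDH5 and KDR, were undetected on every array. CD14, a leukocyte marker detected on all 12 arrays, fell by 0.75 in CYT1 (adjusted p = 0.00119), stood at -0.11 in CYT2 and was higher in CYT2 than in CYT1 by 0.64 (adjusted p = 0.0449). The summed leukocyte signal ran from 1558 to 1712 in VEC, from 1120 to 1205 in CYT1 and from 1378 to 1518 in CYT2, and the endothelial sum from 586.5 to 672.7 over all arrays. The part of such markers in the results on AP-1 genes was not tested.

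The arrays did not group by biological number. Pairs of arrays sharing a biological number differed by a mean root mean square of 0.322 on the log2 scale, pairs sharing neither number by 0.326, and pairs sharing a technical number by 0.31. In a fit to all 12 arrays the estimated correlation between arrays of one biological replicate was -0.144, and that between arrays of one group with the same technical number was 0.074. The columns of deposited signals carry the technical number of the titles as a letter, and which of the numbers stands for a separate sample cannot be told apart here. The calls of the 8 genes were therefore also tried with arrays averaged by technical number, a choice made after the data were seen, and within each technical number. The other genes named below were not tried this way.

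The array data are set beside 4 promoters, because FOSB and JUNB moved against FOS in both ICD groups and JUN did in CYT1. ATF3 did so in both groups and JUND in CYT1 as well, and their promoters are not printed. AP-1 dimers bind near the starts of several of their own genes, and a part of such binding in these changes was not tested. RefSeq (GRCh38.p14) gave promoters for 7 of the 8 genes, in 8 entries, 2 of them for ATF3, and FOSL1 had none. The 120 bases before the annotated start were searched on both strands for TGANTCA, TGACGTCA, TGACATCA and the shorter TGACG, which also lies within TGACGTCA. Sequences run 5′ to 3′ on the gene's strand with matches in capitals.
FOS promoter, chr14:75278708-75278827, plus strand: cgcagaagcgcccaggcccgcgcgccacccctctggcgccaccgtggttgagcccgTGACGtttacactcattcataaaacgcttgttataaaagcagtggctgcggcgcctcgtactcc
FOSB promoter, chr19:45467876-45467995, plus strand: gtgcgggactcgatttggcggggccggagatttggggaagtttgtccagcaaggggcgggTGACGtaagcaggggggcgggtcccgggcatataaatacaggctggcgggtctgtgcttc
JUN promoter, chr1:58784048-58784167, minus strand: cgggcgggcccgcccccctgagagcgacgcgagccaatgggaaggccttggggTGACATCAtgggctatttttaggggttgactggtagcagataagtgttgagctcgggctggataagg
JUNB promoter, chr19:12791366-12791485, plus strand: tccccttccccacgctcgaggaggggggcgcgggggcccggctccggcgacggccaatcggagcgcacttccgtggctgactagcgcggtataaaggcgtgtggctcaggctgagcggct
FOS, FOSB and FOSL2 hold TGACG at nearly the same distance, from 64 to 60, from 60 to 56 and from 66 to 62 bases before the start. FOSL2 was not called in either comparison. JUND holds it from 86 to 82 bases before the start, and JUN holds TGACATCA from 67 to 60 bases before it. In all, 4 of the 7 genes (FOS, FOSB, FOSL2 and JUND) had TGACG in this window, which 13.3% of the 35116 promoters hold, and TGACATCA is held by 1.79%. TGANTCA (3.34% of promoters) and TGACGTCA (1.29%) were found in 0 of the 7, and the JUNB window and both ATF3 windows held none of the 4 sequences. These are matches of letters only.

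With the CYT1 ICD, 7 of the 8 genes differed from VEC, where 35.9% of all probes did. FOSB, JUN, JUNB, JUND and ATF3 rose (5 of 8, and 16.7% of all probes) and FOS and FOSL1 fell (2 of 8, and 19.2%). With the CYT2 ICD 5 of 8 differed, against 30.4% of all probes: FOSB, JUNB and ATF3 rose (14.7% of all probes) and FOS and FOSL1 fell (15.6%). By unadjusted p under 0.05, 46.6% and 42.4% of all probes differed. All 8 genes had a probe that passed the detection filter, but FOSB passed only through ICD arrays and so had to differ, and without it the counts were 6 of 7 and 4 of 7. The median log2 fold change of the 8 genes, FOSB included, was 0.38 for CYT1 and 0.22 for CYT2, beside -0.044 and -0.046 for all probes. Both comparisons use the same VEC arrays.

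**Figure D1:**
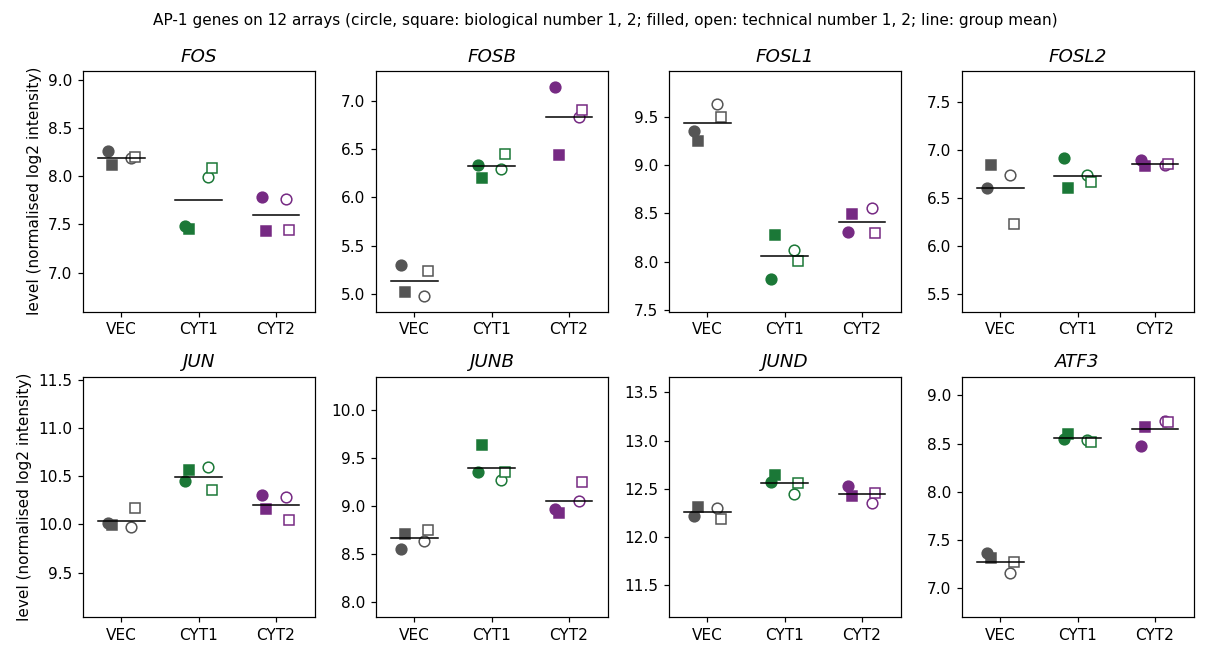
Normalised log2 intensity (y axis, each panel spanning the same range) of the 8 AP-1 genes on the 12 arrays, by group on the x axis. Circles and squares are biological numbers 1 and 2, filled and open symbols technical numbers 1 and 2, and lines group means. FOSB and ATF3 lie higher and FOSL1 lower on all ICD arrays than on any VEC array, while FOS in CYT1 splits by technical number, at 7.48 and 7.45 against 7.99 and 8.09.

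FOSL1, the gene of FRA-1, a FOS protein that lacks the transactivating tail of FOS, showed the largest fall of the family. In VEC its levels were 9.35 and 9.64 on the arrays of biological replicate 1 and 9.25 and 9.50 on those of replicate 2. In CYT1 they were 7.82 and 8.12, then 8.28 and 8.01, and in CYT2 8.31 and 8.56, then 8.49 and 8.30. All VEC arrays were high, all ICD arrays low, and every CYT2 array lay above every CYT1 array. FOSL1 fell by 1.37 ± 0.10 in CYT1 (SE, n = 2 replicates per group, adjusted p = 3.1e-04), which is 2.59-fold lower. In CYT2 it fell by 1.02 ± 0.10 (adjusted p = 0.00115), or 2.02-fold lower. FOSL1 was called in both comparisons under all 22 alternative settings, among them arrays averaged by technical number (adjusted p = 4.3e-04 and 0.00197) and each technical number alone. The 22 are not all distinct. In each contrast, leaving out either replicate of the group not compared repeats the fit of only the groups compared.

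FOSB encodes a FOS protein with a transactivating tail. Its probe was above background on 0 of 4 VEC arrays, with detection p from 0.104 to 0.287, and on all 4 arrays of both ICD groups. The VEC levels were 5.30 and 4.98, then 5.02 and 5.24. CYT1 levels were 6.34 and 6.30, then 6.20 and 6.45, and CYT2 levels 7.15 and 6.83, then 6.44 and 6.91. ICD arrays were thus high throughout, and CYT1 and CYT2 overlapped through 1 CYT2 array at 6.44. Because VEC gives only an upper limit, FOSB was at least 1.78-fold higher in CYT1 and at least 2.52-fold higher in CYT2. The limma test applies to the fitted log2 fold changes, 1.19 (adjusted p = 9.9e-04) and 1.70 (adjusted p = 3.8e-04), called under all 22 alternatives. As FOSB passed the filter only through ICD arrays, where it is high, these calls are no separate support for a rise. The fitted values shrank to 0.43 and 0.67 with the deposited values, which keep the background.

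FOS is the founding member of the family and an immediate early gene. It was lower in both ICD groups, by much less than FOSL1. VEC levels were 8.26 and 8.19, then 8.12 and 8.20, CYT1 levels 7.48 and 7.99, then 7.45 and 8.09, and CYT2 levels 7.78 and 7.76, then 7.43 and 7.44. No ICD array reached the VEC arrays, but CYT1 arrays split by technical number and CYT2 arrays by biological number. FOS fell by 0.44 ± 0.13 in CYT1 (n = 2, adjusted p = 0.0384), or 1.36-fold, and by 0.59 ± 0.13 in CYT2 (adjusted p = 0.0171), or 1.50-fold. In CYT1 the call was lost when arrays were averaged by technical number (adjusted p = 0.117), with technical arrays 2 alone (-0.15, adjusted p = 0.547, against -0.72 with technical arrays 1 alone) without the detection filter (0.0867), and when VEC replicate 1 (0.142) or 2 (0.103) or CYT1 replicate 1 (0.127) or 2 (0.106) was left out. In CYT2 it was lost when averaged by technical number (adjusted p = 0.0589), within technical number 1 (0.0681) or 2 (0.0586), and when VEC replicate 1 (0.0814) or 2 (0.0627) or CYT2 replicate 2 (0.0553) was left out.

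FOSL2, the gene of FRA-2, was not called in either comparison. Its levels ran from 6.23 to 6.84 in VEC, from 6.60 to 6.91 in CYT1 and from 6.83 to 6.89 in CYT2, and the groups overlapped. The log2 differences from VEC were 0.12 ± 0.10 (95% interval -0.12 to 0.37, adjusted p = 0.389) for CYT1 and 0.25 ± 0.10 (0 to 0.50, adjusted p = 0.119) for CYT2. Under median scaling the latter was called, at 0.36 (adjusted p = 0.0427).

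Among the JUN genes, which supply the usual partners of FOS proteins, JUNB moved the most. JUNB competes with JUN for partners and is the weaker activator on many target sites. Its levels were 8.56 and 8.64, then 8.71 and 8.75 in VEC, 9.35 and 9.27, then 9.63 and 9.35 in CYT1, and 8.97 and 9.05, then 8.93 and 9.25 in CYT2. The 3 groups did not overlap, with VEC lowest and CYT1 highest. JUNB rose by 0.74 ± 0.10 in CYT1 (n = 2, adjusted p = 0.00312), or 1.67-fold, and this was called under all 22 alternatives, although it came to 0.48 with the deposited values. In CYT2 it rose by 0.39 ± 0.10 (adjusted p = 0.0345), or 1.31-fold. That call was lost under 11 of the 22 alternatives, among them averaging by technical number (adjusted p = 0.0635), technical number 1 (0.217) or 2 alone (0.0873), the deposited values (0.21 on the log2 scale, adjusted p = 0.0707), and leaving out VEC replicate 1 (0.15) or 2 (0.0731) or CYT2 replicate 1 (0.0903) or 2 (0.14).

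JUN, after which the JUN genes are named, was called in CYT1 and not in CYT2, a difference that the test between isoforms below did not call. Its levels were 10.01 and 9.97, then 9.99 and 10.17 in VEC, 10.45 and 10.60, then 10.56 and 10.36 in CYT1, and 10.31 and 10.29, then 10.16 and 10.05 in CYT2. CYT1 arrays lay above all others, while CYT2 and VEC overlapped. JUN rose by 0.46 ± 0.10 in CYT1 (n = 2, adjusted p = 0.0158), or 1.37-fold, and the call held when arrays were averaged by technical number (adjusted p = 0.016). It was lost with technical arrays 2 alone (0.42, adjusted p = 0.141), with median scaling over all probes of the array (0.28, adjusted p = 0.0976) and when VEC replicate 1 (0.0805) or CYT1 replicate 1 (0.0715) was left out, and the deposited values gave 0.26. In CYT2 the difference was 0.17 ± 0.10 (95% interval -0.07 to 0.41, adjusted p = 0.25).

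JUND, which in many cell types is present without stimulation, changed the least of the called genes. Levels ran from 12.19 to 12.31 in VEC, from 12.45 to 12.64 in CYT1 and from 12.35 to 12.53 in CYT2, so that VEC lay below both ICD groups, which overlapped each other. JUND rose by 0.30 ± 0.08 in CYT1 (n = 2, adjusted p = 0.0311), or 1.23-fold, a call lost under 15 of 22 alternatives. Those included averaging by technical number (adjusted p = 0.0721), technical number 1 (0.112) or 2 alone (0.225), the deposited values (0.14, adjusted p = 0.244) and the replicate block (adjusted p = 0.0521). The call was also lost on leaving out any 1 of the 6 biological replicates, at 0.26 to 0.34 on the log2 scale. Either CYT2 replicate gave the same fit there. For CYT2 the difference of 0.18 ± 0.08 (95% interval -0.01 to 0.38) was not called (adjusted p = 0.137), but was with limma-trend (0.0264) and with the biological sample as a random block (0.0462).

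ATF3, a stress-induced member that often acts as a repressor, rose in both ICD groups. Levels were 7.36 and 7.16, then 7.31 and 7.27 in VEC, 8.55 and 8.54, then 8.60 and 8.52 in CYT1, and 8.47 and 8.73, then 8.67 and 8.72 in CYT2. VEC arrays stood apart from all ICD arrays, and the ICD groups overlapped. ATF3 rose by 1.28 ± 0.08 in CYT1 (n = 2, adjusted p = 2.1e-04), or 2.42-fold, and by 1.37 ± 0.08 in CYT2 (adjusted p = 2.3e-04), or 2.59-fold. Both were called under all 22 alternatives, at 0.81 and 0.90 with the deposited values. These values come from 1 probe: the other 2 ATF3 probes, 1 of which carries the same RefSeq accession in the annotation, were above background on 0 of 12 arrays, with signals of 94.5 to 122.8, and were not tested.

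**Figure D2:**
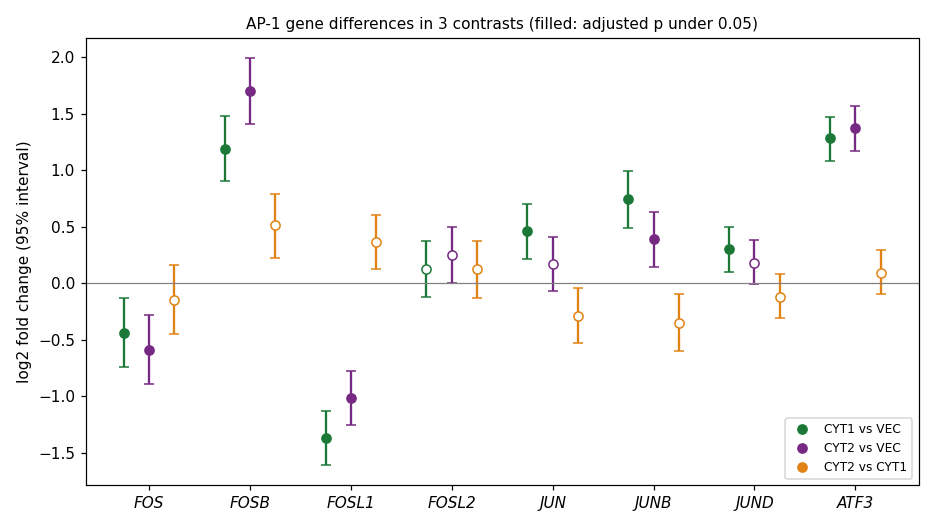
Log2 fold change (y axis) of the 8 genes in the 3 contrasts, with 95% intervals of the limma model; filled points had an adjusted p under 0.05. In both ICD groups the fitted values of FOSB, FOSL1 and ATF3 against VEC are at least 1.02 in size (log2). No point of CYT2 against CYT1 is filled. FOSB was undetected in VEC and passed the filter only through ICD arrays, so its fitted values are no lower limit. Its bounds are 1.78-fold in CYT1 and 2.52-fold in CYT2.

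Directions against VEC were the same under all 22 alternatives for the 7 genes called in CYT1 and the 5 called in CYT2. Of these, 4 (FOSB, FOSL1, JUNB and ATF3) and 3 (FOSB, FOSL1 and ATF3) were called under every alternative. FOSB counts in both, although it passed the filter only through ICD arrays and so had to differ. Scaling moves the balance of the array as a whole: 46.5% of the probes called for CYT1 were higher, against 31.3% with the deposited values and 33.6% with median scaling over all probes. For CYT2 these shares were 48.5%, 31.2% and 37.1%. All 4 arrays of a group lay apart from all 4 VEC arrays for 7 of the 8 genes in CYT1, where 37.1% of all probes did so, and for 6 in CYT2, where 34.5% did. FOSB is counted in both for the same reason.

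**Figure D3:**
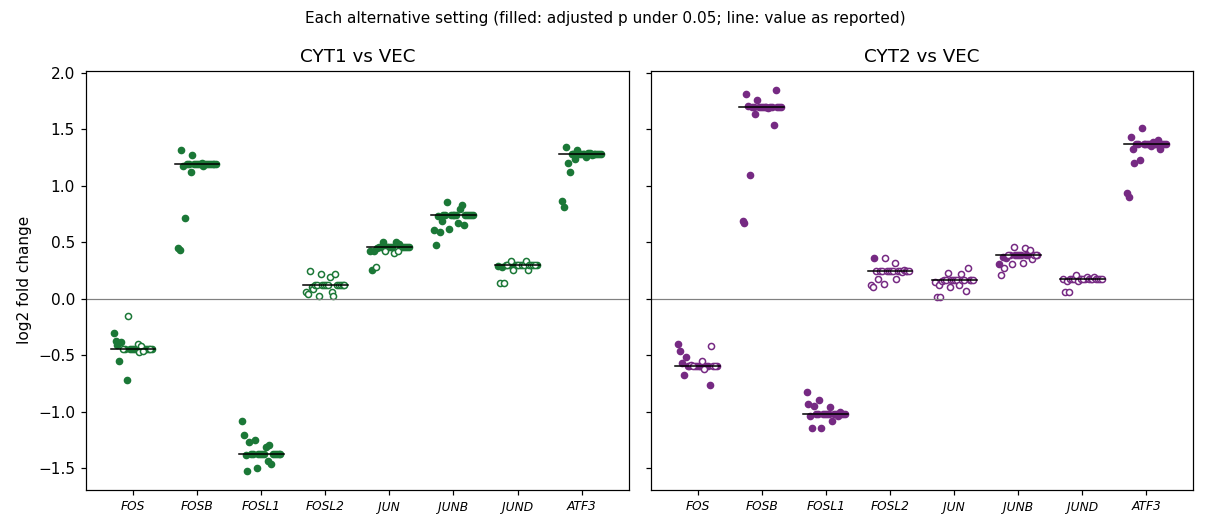
Log2 fold change against VEC (y axis) of each gene under each of the 22 alternative settings, left for CYT1 and right for CYT2; filled points had an adjusted p under 0.05 and lines mark the reported value. FOSB, FOSL1 and ATF3 are filled throughout, whereas FOS, JUN and JUND in CYT1 and FOS and JUNB in CYT2 hold open points. FOSB passed the filter only through ICD arrays and so had to differ, so its filled points are no separate support for a rise.

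A direct comparison asked whether the 2 ICD isoforms differ. None of the 8 genes was called between CYT2 and CYT1 by limma (0 of 8, where 0.472% of all probes were, 0.202% higher and 0.271% lower), and 4 had an unadjusted p under 0.05, where 17.5% of all probes did. FOSB was higher in CYT2 by 0.51 ± 0.12 (n = 2, 95% interval 0.22 to 0.79, adjusted p = 0.121) and FOSL1 by 0.36 ± 0.10 (0.12 to 0.60, adjusted p = 0.157). JUNB was lower by 0.35 ± 0.10 (-0.60 to -0.10, adjusted p = 0.169) and JUN by 0.29 ± 0.10 (-0.53 to -0.04, adjusted p = 0.223). For FOSL1, JUN and JUNB all arrays of one isoform lay apart from those of the other, which held for 11.4% of all probes. Intervals for the others were -0.45 to 0.16 for FOS, -0.13 to 0.37 for FOSL2, -0.31 to 0.08 for JUND and -0.10 to 0.29 for ATF3. With limma-trend FOSL1, JUN and JUNB were called (adjusted p = 0.039, 0.0419 and 0.0326), when 1089 of 17356 probes were. With all 12 arrays and the biological sample as a random block FOSB and JUNB were called (adjusted p = 0.0302 and 0.0394), when 1094 of 17356 probes were. That fit used the negative correlation of -0.144, which lets technical arrays count for more than separate samples would. With uncorrected signals JUNB was called (adjusted p = 0.035), when 994 probes were. With arrays averaged by technical number none was called, with adjusted p of 0.137 for FOSB, 0.302 for FOSL1, 0.309 for JUN and 0.307 for JUNB. Within technical number 1 these were 0.49, 0.522, 0.468 and 0.278, and within number 2 they were 0.29, 0.388, 0.479 and 0.661.

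The genes whose centred profiles over the 6 biological replicates lay closest to each member were named by their root mean square difference in log2. For FOSB these were INCENP (0.0791), CENPE (0.102) and CENPW (0.109), all of which act at centromeres in mitosis. That profile rests on a VEC level of FOSB at background, which is only an upper limit, and its distances were not computed under another background correction. FOSL1 lay closest to WNT7A, a secreted WNT ligand (0.0608), TMC7 (0.0637) and ALDH1A3, a retinoic acid synthesis enzyme (0.0758). ATF3 lay closest to FADS1, a fatty acid desaturase (0.0337), PHGDH, the first enzyme of serine synthesis (0.0575), and PDLIM7 (0.0605). Those nearest to JUNB were TTC3 (0.0524), BLOC1S2 (0.0558) and LCAT (0.0575), and those nearest to FOS were ZDHHC5 (0.048), TSHZ1 (0.0505) and MATN2 (0.0562).

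Other bZIP genes, listed whether or not they pair with AP-1 proteins, did not lean one way. Of 16 tested 4 rose and 4 fell in CYT1 and 3 rose and 3 fell in CYT2, with medians of 0.13 and 0.03. The called shares were 50% and 37.5%, beside 35.9% and 30.4% of all probes. CREB5 fell by 0.99 ± 0.12 in CYT1 (adjusted p = 0.00179) and stood at -0.33 in CYT2 (0.0786). NFE2L3 fell by 0.91 ± 0.10 (adjusted p = 0.00117) in CYT1 and by 0.49 in CYT2 (0.0127). CREB1, a cyclic AMP response factor, rose in both groups, by 0.93 ± 0.08 (adjusted p = 6.6e-04) and 0.89 ± 0.08 (adjusted p = 0.00104). JDP2, a repressor that pairs with JUN, rose by 0.49 in CYT1 (adjusted p = 0.0164) and 0.63 in CYT2 (0.00843). CEBPG fell by 0.51 in CYT1 (adjusted p = 0.0159) and 0.55 in CYT2 (0.0145).

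Immediate early genes outside the family moved in both directions. Of 19 tested 4 rose and 5 fell in CYT1 and 4 rose and 4 fell in CYT2, with medians of -0.07 and -0.04. The called shares were 47.4% and 42.1%, beside 35.9% and 30.4% of all probes. CCN1, a matricellular protein, rose by 2.63 ± 0.08 in CYT1 (adjusted p = 3.2e-05) and 2.33 ± 0.08 in CYT2 (adjusted p = 5.9e-05). GADD45B rose by 1.24 in CYT1 and 1.02 in CYT2 (adjusted p = 4.5e-04 and 0.00113), and the MAP kinase phosphatase DUSP1 rose by 1.24 and 0.80 (adjusted p = 2.6e-04 and 0.00151). TRIB1, a pseudokinase, fell by 1.06 in CYT1 and 1.25 in CYT2 (adjusted p = 4.3e-04 and 3.2e-04), and PHLDA1 fell by 1.19 and 1.09 (adjusted p = 4.0e-04 and 7.1e-04).

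Among kinases and regulators upstream of AP-1, 6 of 26 rose and 5 fell in CYT1, and 5 rose and 3 fell in CYT2. RPS6KA1, an ERK-activated kinase (RSK) that phosphorylates FOS, fell by 1.51 ± 0.10 (adjusted p = 2.9e-04) in CYT1 and by 1.25 ± 0.10 (adjusted p = 7.3e-04) in CYT2. MAPK7, the gene of ERK5, rose by 0.82 ± 0.09 (adjusted p = 0.00123) and 0.72 ± 0.09 (adjusted p = 0.00246). MAPK3, the gene of ERK1, rose by 0.66 ± 0.08 (adjusted p = 0.0021) and 0.61 ± 0.08 (adjusted p = 0.0035). The called shares of this list, 42.3% and 30.8%, compare with 35.9% and 30.4% of all probes.

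Genes reported elsewhere as AP-1 targets also moved in both directions. In CYT1 5 of 20 rose and 7 fell, and in CYT2 5 rose and 5 fell, with medians of -0.24 and -0.10. The called shares were 60% and 50%, beside 35.9% and 30.4% of all probes. MMP9, a gelatinase, rose by 1.77 ± 0.08 in CYT1 (adjusted p = 9.2e-05) and by 0.98 in CYT2 (7.1e-04). MMP1, an interstitial collagenase, was detected on all 4 VEC arrays, 1 CYT1 array and 0 CYT2 arrays. It passed the filter only through VEC, where it is high, and so had to differ, yet it is counted in both called shares. It was at least 2.28-fold lower in CYT2, and no fold is given for CYT1, where 3 of 4 arrays were at background. SPRR1B, a cornified envelope precursor of a family with near-identical members, fell by 1.70 in both groups (adjusted p = 1.4e-04 and 1.8e-04). SPRR3, of the same family, fell by 1.26 ± 0.15 in CYT2 (adjusted p = 0.00219) and stood at 0.16 ± 0.15 in CYT1. SPRR3 and MMP9 were the 2 of the 20 called between the isoforms, lower in CYT2 by 1.42 and 0.79 on the log2 scale (adjusted p = 0.0387 for both). Neither call held when CYT1 or CYT2 replicate 1 or 2 was left out, with technical arrays 1 alone or with the technical number as a block of the averaged arrays, since 0 probes in all were called there. In that comparison 0 genes of the other 3 lists were called by limma.

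**Figure D4:**
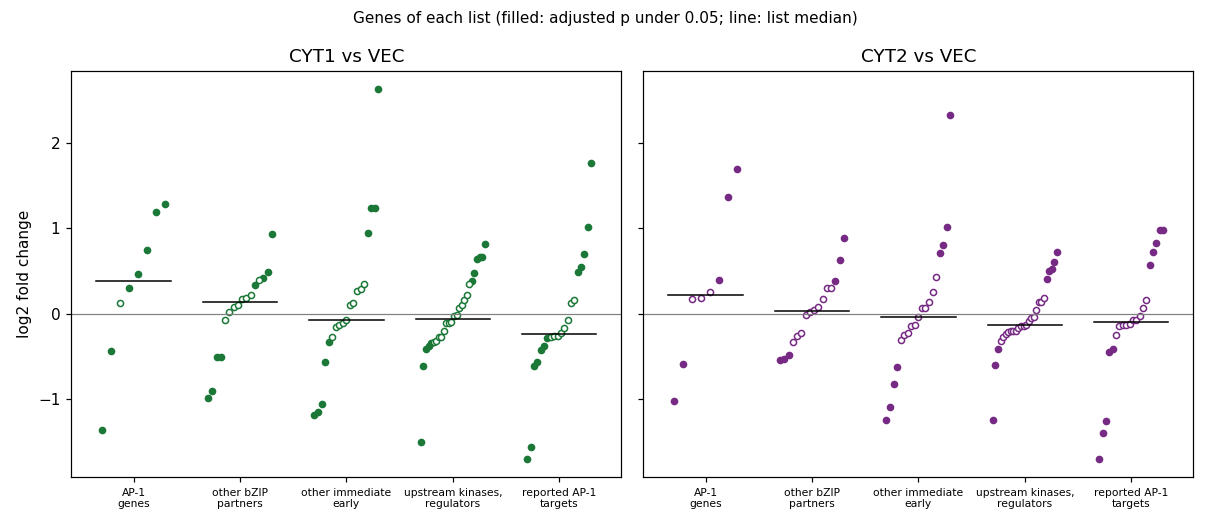
Log2 fold change against VEC (y axis) of the 8 AP-1 genes and of the tested genes of 4 related lists (x axis), sorted within each list, left for CYT1 and right for CYT2; filled points had an adjusted p under 0.05 and lines are list medians. Each list holds genes on both sides of 0, and list medians run from -0.24 to 0.38.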

How the data were processed

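The deposited signals are mean bead intensity of each probe on each array, per the file headers, with no background removed and no normalisation as far as the values show. Beside each, the authors deposited a detection p-value, which moves in steps of 1 in 770. A second deposited table holds log2 values named by sample. Every column there was the log2 of a single signal column (largest difference 5e-09). Signal columns name the group and a letter and number, and this identity settled which sample each, with its detection p-values, belongs to. The sources used here name no scanner or software.

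From these values, neqc in limma 3.58.1 (R 4.3.3) removed background, with the negative controls worked out from detection p-values, added an offset of 16, quantile-normalised and took log2. Fold changes on this scale understate those of dim probes. A probe was tested where at least 2 of the 6 biological replicates had it detected (p under 0.05) on each of their technical arrays, which left 17356. Technical arrays were averaged, 1 model of the 3 groups was fitted (3 residual and 3.07 prior degrees of freedom), and p-values were adjusted over all probes by Benjamini-Hochberg. The fit was tested on simulated data. A probe undetected on every array of a group gives a bound, the brighter mean against the higher of the dim probe's level and the lowest detected level. The array number limits the precision.

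The annotation named 1 symbol on 30113 probes and several on 8, and 17202 are unnamed here. Symbols were updated through RefSeq gene IDs, and a gene is represented by its brightest tested probe. The members and lists were chosen with earlier results of these data known. The rule for names took all 8 members, the 3 nearest profiles of each member whose group means span at least 0.5 on the log2 scale, and up to 3 called genes of largest change per list and contrast, of which some are given in both contrasts. Alternatives covered background, scaling, offset, filter, array averaging, pairing, prior and left-out replicates. Plots used Python 3.11.15 and matplotlib 3.10.9.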

Additional observations from a re-analysis of the deposited data

How the results depend on the processing

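Of the 22 alternatives, 4 were added after seeing the data: median scaling over all probes and the 3 that treat the technical number as the sample. Leaving out a replicate of the group not compared repeats the fit of only the groups compared, so counts of alternatives include that fit more than once. The slide as a block was not run, since the sources used here give no slides. For the 8 AP-1 genes the count called in CYT1 (7) fell to 4 with technical arrays 2 alone and lay between 4 and 6 with 1 replicate left out. The CYT2 count (5) fell to 3 with technical arrays 1 or 2 alone and with arrays averaged by technical number, with or without that number as a block, and lay between 3 and 5 with 1 replicate left out. The CYT1 count was 6 with the deposited values, and 5 with median scaling over all probes, without the detection filter and with arrays averaged by technical number. The CYT2 count was 6 with median scaling, limma-trend and the biological sample as a random block. It was 4 with the deposited values, median scaling over all probes and no detection filter. Between isoforms the count of 0 became 1 with uncorrected signals, 2 with the 12 arrays and the biological sample as a random block and 3 with limma-trend. Over all probes, 6229 for CYT1 became 3169 and 3453 with technical arrays 1 and 2 alone and 3969 to 5688 with 1 replicate left out, and 5272 for CYT2 became 2420, 2398 and 3020 to 4921. Between isoforms 82 became 994 (uncorrected), 706 (deposited values), 52 (median scaling), 482 (offset of 50), 2 (no detection filter), 377 (detection p under 0.01), 0 and 1 (technical arrays 1 and 2 alone), 1094 (biological sample as random block), 3 (only the groups compared), 1089 (limma-trend), 0 to 3 (1 replicate left out), 13 and 0 (averaged by technical number, without and with it as a block) and 532 (technical number as random block). With the biological number as a replicate block the counts of AP-1 genes were 6, 5 and 0 and those of all probes 5719, 4732 and 2; JUND in CYT1 was the AP-1 call it ended. Differences between biological numbers 2 and 1 correlated between groups at -0.006 to 0.016, so the numbers were not used to pair samples. Differences between CYT2 and CYT1 that changed sign were those of FOS, at 0.14 with technical arrays 1 alone and from -0.32 to 0.02 with 1 replicate left out, and of ATF3, at -0.01 with technical arrays 1 alone; the cause was not tested. Signal over background limits FOSB, undetected in VEC.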

Other observations

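Averaging arrays by biological number gave a median standard deviation between the 2 averages of a group of 0.0796 in VEC, 0.0854 in CYT1 and 0.0822 in CYT2 over the 17356 probes. Averaging by technical number gave 0.0898, 0.104 and 0.0937. The main tests used averages by biological number, so they rest on the smaller median spread in every group. FOS showed both patterns: its CYT1 arrays stood at 7.48 and 7.45 for technical number 1 and at 7.99 and 8.09 for number 2, while its CYT2 arrays stood at 7.78 and 7.76 for biological number 1 and at 7.43 and 7.44 for number 2.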
